A study of Homo sapiens with 12 samples.

Results

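CHD4-depleted cells of 2 human acute myeloid leukaemia lines, MV4-11 and U937, were compared with each other. The comparison rests on 6 of the 12 expression arrays of the study, 3 titled as MV4-11 and 3 titled as U937 with the CHD4 hairpin, all of which were used. The other 6 arrays hold the same lines with a scrambled, non-silencing hairpin, 3 per line, and they show which line differences were present without depletion. All 12 arrays come from cells that carry a lentiviral pRRL.H1 vector expressing GFP, so the vector is shared by every group. U937 is a monocytic line with a PICALM-MLLT10 fusion. MV4-11 is a myelomonocytic line with a KMT2A-AFF1 (MLL) fusion and an internal tandem duplication in FLT3. Each line is a single established culture model, and the labels do not say whether separate infections or separate cultures lie behind the triplicates, which the series description calls biological. The sample titles spell the target CDH4, while the series description spells it CHD4. Every autosomal gene with a probe set that names it alone was included, 11468 genes in all. Genes covered only by probe sets with several gene symbols were left out.

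CHD4 is an ATPase that slides nucleosomes and is a core subunit of NuRD, the nucleosome remodelling and deacetylase complex, which also holds the histone deacetylases HDAC1 and HDAC2. NuRD is best known for keeping genes silent, and it also takes part in the DNA damage response. Leukaemias with MLL or MLLT10 fusions share a programme of HOXA genes and their partner MEIS1, which is why these lines are often studied side by side. The lines also differ in origin, fusion and karyotype, so each line difference of depleted cells was set beside the same difference in scrambled cells.

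Values are log2 RMA values, on which a step of 1 is a 2-fold change in signal. CHD4 measured 8.79, 8.85 and 8.39 on the MV4-11 arrays with its hairpin, in array order 1 to 3, and 8.23, 8.13 and 8.45 on the U937 arrays. With the scrambled hairpin it measured 10.65, 10.69 and 10.68 in MV4-11 and 10.31, 10.38 and 10.71 in U937. Every depleted array lay below every scrambled array, and the depleted arrays of the 2 lines overlapped. The line difference of CHD4 itself was 0.41 on the log2 scale (SE 0.14, 95% interval 0.10 to 0.71), with a limma adjusted p of 0.101, and its other probe sets differed by 0.03 and 0.17. A higher residual CHD4 signal in MV4-11 of that size was thus not called.

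Several arrays stand apart, and this bears on what follows. The depleted arrays of different lines correlated at Pearson r between 0.976 and 0.990 across genes, and the 3 depleted MV4-11 arrays correlated with each other at 0.985 to 0.994, so these ranges overlap. Among the 33 genes that were at least 4-fold higher in scrambled MV4-11 than in scrambled U937 cells, the median level was 7.46, 8.46 and 7.17 on the depleted MV4-11 arrays 1 to 3 and 4.61, 4.71 and 4.85 on the depleted U937 arrays. Array 2 of depleted MV4-11 was the highest of its group for 31 of these 33 genes. On the scrambled MV4-11 arrays 1 to 3 their median level was 6.72, 7.86 and 7.33, so array 2 was the highest there too. Array 3 of depleted U937 stood off from its group on the first principal component, at -0.95 against -14.0 and -11.7, in the direction of the depleted MV4-11 arrays at 24.2, 38 and 16.1. On the second component it stood at 27.7 against 11.5 and 16.9, away from the depleted MV4-11 arrays at 10.0, 12.8 and -4.47. The 2 components held 39.5% and 29.1% of the variance. Of the 168 differences of at least 2-fold described below, 22 were no longer called without array 2 of depleted MV4-11 and 7 without array 3 of depleted U937. What set the arrays apart was not tested.

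The labelled cell type was checked against marker lists. Lysozyme (LYZ) measured 13.40 to 13.93 and the myeloid factor CEBPA 11.47 to 11.70 on the depleted arrays of both lines, while CD14, a marker of mature monocytes, was low at 4.83 to 5.39 and myeloperoxidase (MPO) at 5.04 to 6.13. The median level of the 28 monocyte and macrophage markers was 7.24 to 7.70 per array in depleted MV4-11 and 7.40 to 7.56 in depleted U937 cells. The 9 erythroid markers had medians of 5.76 to 6.06 and 5.89 to 5.96, and the 12 epithelial markers had medians of 5.22 to 5.34 and 5.31 to 5.67. No erythroid, epithelial or megakaryocyte marker was called between the lines, while the fibroblast, muscle, B lymphoid, neuronal and T and NK lists held 1 or 2 calls each. Over all genes 6.43% were called. Of 14 fibroblast markers, the collagen chain COL5A1 was higher in depleted MV4-11 at 7.28, 7.22 and 7.28 against 5.34, 5.53 and 6.13, by 1.59 (adjusted p 5.6e-04) and by 2.30 in scrambled cells, and FAP was lower by -0.75. TNNT1, 1 of 12 muscle markers, was 0.79 higher and was as far apart in scrambled cells at 0.77, and CSRP3 of the same list was lower and is described below. COL5A1 and TNNT1 were called without each array in turn. Of 13 B lymphoid markers CD79B was higher at 0.76, of 12 neuronal markers NEFH was higher at 0.87 and ELAVL4 lower at -0.78, and of 21 T and NK markers GZMA was higher at 2.03 and NCAM1 lower at -0.35. The calls of FAP, CD79B, GZMA and NCAM1 were lost without array 1 and without array 2 of depleted U937, that of NEFH without array 1 and that of ELAVL4 without array 2 (adjusted p up to 0.140, 0.0569, 0.0775, 0.164, 0.0521 and 0.161 over single arrays).

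Of the 11468 genes, 737 (6.43%) differed between depleted MV4-11 and depleted U937 cells at a limma adjusted p under 0.05. Of these, 420 (3.66%) were higher and 317 (2.76%) were lower in MV4-11. A difference of at least 2-fold was reached by 168 genes (1.46%), 125 of them higher (1.09%) and 43 lower (0.375%), and 53 genes reached 4-fold, 43 higher and 10 lower. Among large differences more were higher in MV4-11, while the median of all genes was slightly negative at -0.04. The 3 arrays of the lines did not overlap for 2994 genes (26.1%), 1325 higher (11.6%) and 1669 lower (14.6%), so non-overlap alone was common. In scrambled cells the same comparison called 627 genes (5.47%), 340 higher (2.96%) and 287 lower (2.5%), with 148 (1.29%) past 2-fold. The count in depleted cells depended on single arrays: it was 310 without array 1 and 288 without array 2 of depleted U937, 394 without array 1 and 428 without array 2 of depleted MV4-11. The split between higher and lower calls was 382 against 353 after quantile normalization and 370 against 391 with arrays centred on their medians.

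The gene with the largest difference was SDCBP, which encodes the scaffold protein syntenin. It measured 9.14, 10.51 and 9.58 in depleted MV4-11 and 4.72, 4.08 and 3.99 in depleted U937 cells. The groups were far apart, with a log2 difference of 5.48 (SE 0.46), or 44.6-fold, at an adjusted p of 2.96e-05. HMGN3, a nucleosome-binding HMG protein on chromosome 6, measured 8.92, 9.53 and 8.64 against 3.97, 3.96 and 4.0. Every MV4-11 array was high and every U937 array low, with a log2 difference of 5.05 (SE 0.29), 33.2-fold, at an adjusted p of 1.41e-06. The neuron navigator NAV3 measured 8.82, 10.38 and 8.51 against 4.35, 4.82 and 4.40, a log2 difference of 4.71 (SE 0.43). Its other probe sets were dim and differed by -0.07 and 0.01, so the NAV3 difference rests on 1 probe set.

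FLT3, the receptor tyrosine kinase that is mutated in MV4-11, measured 9.86, 10.73 and 9.55 in depleted MV4-11 and 6.75, 6.84 and 6.78 in depleted U937 cells. The groups did not overlap, and the log2 difference was 3.26 (SE 0.32), 9.56-fold, at an adjusted p of 9.12e-05. PDLIM1, a cytoskeletal adaptor, measured 8.90, 9.61 and 8.94 against 4.92, 6.02 and 5.19, a log2 difference of 3.77 (SE 0.37). CEBPD, a C/EBP transcription factor of myeloid cells, measured 8.34, 9.75 and 8.14 against 5.25, 4.64 and 5.47, a log2 difference of 3.62 (SE 0.40). Its other probe set was dim and, at 0.70, was not called. FLT3, PDLIM1 and CEBPD were separated between the lines on every array. GGH, a folate hydrolase, and CEP15, a centrosomal protein, were 3.33 and 3.31 higher on the log2 scale. In scrambled cells the same genes differed by 4.71 for SDCBP, 5.26 for HMGN3, 4.18 for NAV3, 3.35 for FLT3, 3.61 for PDLIM1, 3.85 for CEBPD, 3.82 for GGH and 3.34 for CEP15, all past the threshold.

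Of the 10 genes with the largest higher difference, 2 were not called in scrambled cells. PRG2, the major basic protein of eosinophil granules, measured 8.35, 11.64 and 8.87 in depleted MV4-11 and 6.49, 6.24 and 5.85 in depleted U937 cells. Array 2 was the highest and the groups did not overlap. The log2 difference was 3.43 (SE 0.67) at an adjusted p of 0.0107, against 1.58 in scrambled cells at 0.210, and without array 2 of depleted MV4-11 it was 2.42 at an adjusted p of 0.00639. The second such gene, IFI27, belongs to the interferon group described further on.

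Among the genes lower in MV4-11, DEFB1, the epithelial defensin beta 1, led. It measured 6.42, 6.45 and 6.68 in depleted MV4-11 and 11.07, 10.80 and 9.96 in depleted U937 cells. The gap was clear of both groups' spread, with a log2 difference of -4.09 (SE 0.21), 17.1-fold lower, at an adjusted p of 1.04e-06. HDGFL3, a growth-factor-like protein on chromosome 15, measured 5.71, 5.55 and 5.11 against 8.80, 8.79 and 9.30, a log2 difference of -3.51 (SE 0.20). Its other 4 probe sets were also lower, by between -3.28 and -0.42. PPP2R2B, a regulatory subunit of protein phosphatase 2A, measured 4.77, 5.19 and 4.80 against 7.67, 7.47 and 8.08, a log2 difference of -2.82 (SE 0.22). Its other probe set was dim and, at -0.55, was not called. No array of DEFB1, HDGFL3 or PPP2R2B crossed between the lines.

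The other genes lower in MV4-11 were LAMP5, a lysosome-associated membrane protein of plasmacytoid dendritic cells and neurons, at -2.44, and DLK1, a Notch-pathway ligand, at -2.35. CACNA2D3, a calcium channel subunit, stood at -2.25 and the ER retention receptor KDELR3 at -2.18, with its other probe sets at -4.25 and -1.17. HS3ST2, a heparan sulfate sulfotransferase, and PCOLCE2, a procollagen proteinase enhancer, were both at -2.11. The pseudogene GFOD3P was at -2.11 as well. In scrambled cells these differences were -3.47 for DEFB1, -3.53 for HDGFL3, -2.46 for PPP2R2B, -3.07 for LAMP5, -2.80 for DLK1, -2.25 for CACNA2D3, -3.12 for HS3ST2 and -1.86 for PCOLCE2. Of the 20 genes with the largest differences in either direction, 19 were called without each of the 12 arrays in turn. IFI27 was lost without array 1 or 2 of depleted U937, with adjusted p of 0.0525 and 0.0552.

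**Figure D1:**
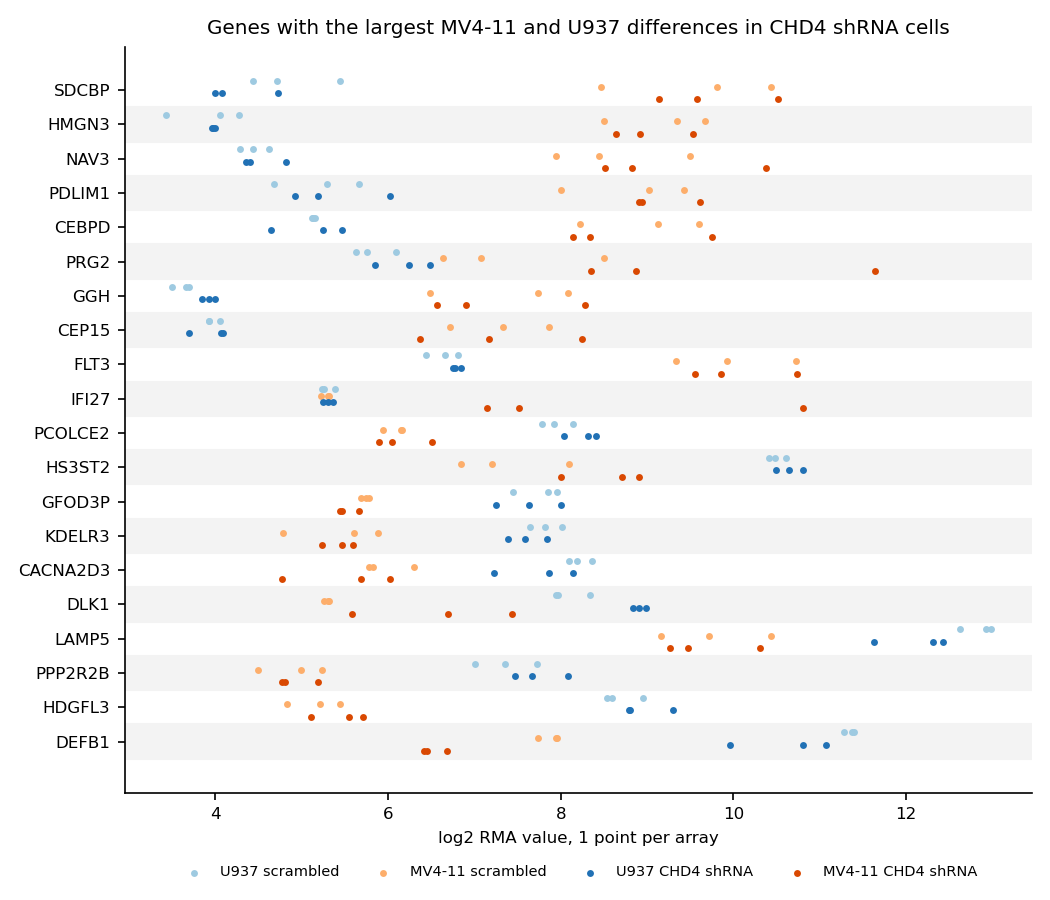
Log2 RMA values, 1 point per array, of the 10 genes most higher and the 10 most lower in depleted MV4-11 than in depleted U937 cells, with the scrambled arrays of both lines in pale colours. IFI27 is the gene whose scrambled arrays of the 2 lines lie together, at 5.22 to 5.39, while its depleted MV4-11 arrays reach 7.14 to 10.80.

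Genes of the MLL-fusion programme and of haematopoietic identity were examined as lists. Over all genes 3.66% were higher and 2.76% lower in depleted MV4-11. Of the 13 measured members of the HOX and MEIS list, 3 were higher in depleted MV4-11 and none was lower. They were FLT3, MEF2C and PBX3, and the list median was 0.12. PBX3, at 0.59, was lost without array 1 or 2 of depleted U937 or array 2 of depleted MV4-11 (adjusted p up to 0.131). MEF2C, a MADS-box factor, measured 10.04, 10.58 and 9.70 in MV4-11 and 7.99, 8.10 and 9.11 in U937 cells. It did not overlap, with a log2 difference of 1.71 (SE 0.31) at an adjusted p of 0.00707, and 2.06 at 0.00204 without U937 array 3, the nearest to MV4-11. MEIS1, the HOXA partner, measured 11.72, 11.29 and 11.96 against 11.42, 11.56 and 11.64. It was high in both depleted lines and overlapped, with a difference of 0.12 at an adjusted p of 0.641, whereas in scrambled cells it was 0.58 higher in MV4-11 at 0.0330. Most HOXA genes were not analysed here.

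Of 28 monocyte and macrophage markers, S100A9 and CCR2 were higher and CD4 was lower in depleted MV4-11, and S100A9 and CD4 were lost without array 1 or 2 of depleted U937 (adjusted p up to 0.0775 and 0.0742). CCR2, the receptor for the chemokine CCL2, measured 8.48, 9.38 and 7.69 in MV4-11 and 5.76, 5.92 and 5.83 in U937 cells. The groups were well separated, at a log2 difference of 2.68 (SE 0.37) and an adjusted p of 0.00116, against 1.71 in scrambled cells. With 6.43% of all genes called, the monocyte and neutrophil counts are not read as results about these lists. Of 23 neutrophil granule genes, 1 was lower and 1 higher. The lower one was CTSG, cathepsin G, at 12.31, 12.12 and 12.66 against 14.47, 14.46 and 14.07. Its arrays did not overlap and its log2 difference was -1.97 (SE 0.17) at an adjusted p of 4.53e-05, with -1.32 in scrambled cells. The higher one was CEACAM6, a granule adhesion molecule, at 9.17, 8.19 and 8.45 against 7.07, 7.59 and 7.53. It was separated by 1.21 (adjusted p 0.0204) and was lost without array 1 or 2 of depleted U937 or array 1 of depleted MV4-11, with an adjusted p of up to 0.0900.

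Other cell type and receptor lists had larger called shares than the 6.43% of all genes. The lists were small, and several of the calls were lost without single arrays. Of 15 stem and progenitor markers, KIT, CD38 and GATA2 were higher. CD38, an ectoenzyme of blood progenitors, measured 7.65, 7.61 and 7.68 against 6.85, 7.17 and 6.89, with 0.68 in depleted and 0.82 in scrambled cells, while GATA2 at 1.80 was lost without array 1 or 2 of depleted U937 (adjusted p up to 0.0777). The other GATA2 probe sets were not called, at -0.23 and 0.40, so its difference rests on 1 probe set. Of 9 mast cell and eosinophil markers, PRG2 and FCER1A, the alpha chain of the IgE receptor, were higher and the eosinophil peroxidase EPX was lower, at -0.36 with an adjusted p of 0.0388 that passed 0.05 on leaving out any of 8 arrays (up to 0.134). FCER1A measured 5.14, 7.0 and 4.20 against 3.36, 3.48 and 3.21, with array 2 of MV4-11 high, and its call at a log2 difference of 2.10 was lost without array 1 or 2 of depleted U937 (adjusted p up to 0.0683). Leaving out array 2 of depleted MV4-11 gave 1.32 for FCER1A at an adjusted p of 0.00451. The median of the 9 mast cell and eosinophil markers was 7.0 on that array and 5.14 and 5.20 on the other depleted MV4-11 arrays. On arrays 1 and 2 this median equals the FCER1A value, so it is not separate evidence about the list. Of 26 cytokine and growth factor receptors, FLT3, KIT and IL1RAP were higher and IL6R lower, and the last 2 were lost on leaving out array 1 of depleted U937 (adjusted p up to 0.0576 and 0.172).

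Chromatin genes were looked at because the depleted protein is a remodeller. Of 46 other remodelers and modifiers, 3 were higher and none lower, in depleted and in scrambled cells alike. With 6.43% of all genes called, this count is near the general share and is not read as a result about chromatin genes. HDAC4, a class IIa deacetylase, measured 6.39, 7.62 and 6.38 in depleted MV4-11 and 3.82, 3.99 and 4.09 in depleted U937 cells. Its groups lay far apart, with a log2 difference of 2.83 (SE 0.43) at an adjusted p of 0.00213, and 2.11 in scrambled cells. With the high MV4-11 array 2 left out, HDAC4 differed by 2.42 at an adjusted p of 0.00617. CHD7, a CHD4 relative, was 1.56 higher and the Polycomb methyltransferase EZH2 0.51 higher, both called in scrambled cells too and both lost, among other arrays, without array 1 or 2 of depleted U937 (adjusted p up to 0.0772 and 0.0692). The other CHD7 probe set was dim and differed by -0.10 in depleted and 0.04 in scrambled cells, so the CHD7 difference rests on 1 probe set. Of 11 NuRD genes, HDAC2 was called, at 0.43 in depleted and 0.46 in scrambled cells, and its call was lost without array 1 or 2 of depleted U937 or array 1 of depleted MV4-11 (adjusted p up to 0.0692).

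The scrambled arrays were then used to see which of these line differences they lacked. Of the 737 calls in depleted cells, 342 (46.4%) were also called in scrambled cells, all in the same direction, and these were 54.5% of the scrambled calls. Of the 168 genes past 2-fold, 112 were also called in scrambled cells and 56 were not, 49 higher and 7 lower in MV4-11. Among these 56, 48 had the same sign in scrambled cells, 39 had a scrambled difference less than 0.5 times as large, and 23 had overlapping scrambled arrays. The difference between the depleted and the scrambled line difference, tested itself in limma, was called for 0 genes (0.0%) after adjustment, with the lowest adjusted p at 0.539. At an unadjusted p under 0.05 it held for 522 genes (4.55%). Among the 56 it held for 27, but they were chosen for a large depleted and an uncalled scrambled difference. That choice itself favours a low p, so the 27 are not a separate test. A gene that was called in depleted and not in scrambled cells was thus not shown to differ between them by the test over all 12 arrays. The median standard error of this difference was 0.17, against 0.12 for a line difference. With MV4-11 and U937 replicate numbers as a block, the unadjusted count rose to 1276 as a fixed term and 1191 as a random term, and 0 genes were called in either. The lowest limma adjusted p was then 0.0823 and 0.0845, against 0.539 in the main fit, which holds no block.

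Leaving out single arrays, with the same-numbered array of the other hairpin kept, changed this count. Without array 2 of depleted MV4-11 the difference between line differences was called for 4 genes, IFI27, IFI44, MX1 and TM6SF1, and without array 3 for 1 gene, CHGB. With array 2 of depleted MV4-11 and array 3 of depleted U937 both left out, an alternative chosen after the data were seen, IFI27, IFI44 and MX1 were called. These genes, and others with low unadjusted p, are described next by role. Of the 56 genes not called in scrambled cells, 15 kept their depleted-cell call without each of the 12 arrays in turn, as did 99 of the 112 shared ones.

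**Figure D2:**
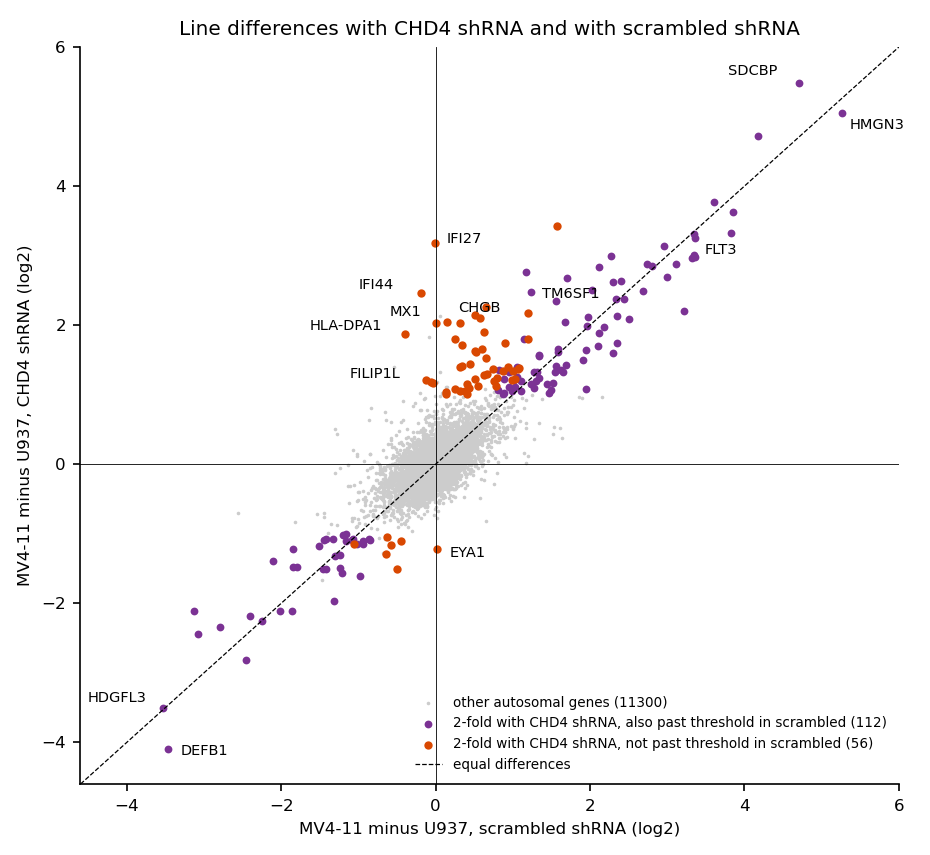
MV4-11 minus U937 log2 differences of 11468 autosomal genes in depleted cells (vertical) and scrambled cells (horizontal), with the dashed line marking equal differences. Most of the 112 purple genes lie along the line, and orange genes such as IFI27, IFI44, MX1 and HLA-DPA1 lie above it at a scrambled difference near 0 or below.

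Interferon-stimulated genes form the first group. They are induced by type I interferon or by sensed nucleic acid through the interferon-stimulated response element in their promoters, and many of their products restrict viruses. Of 34 measured members, 6 were higher and 1 lower in depleted MV4-11, with a median of 0.34 and 29 members above 0. In scrambled cells 3 were higher and 2 lower, with a median of -0.02 and 15 above 0. Over all genes 3.66% were higher and 2.76% lower in depleted cells, and 2.96% and 2.5% in scrambled cells. Of 11468 genes, 4926 lay above 0 in depleted and 4907 in scrambled cells, with medians of -0.04 and -0.03. The count of higher members fell to 2 without array 1 and 3 without array 2 of depleted U937 and rose to 10 without array 3 of depleted MV4-11. Without array 2 of depleted MV4-11 it was 6, with a median of 0.16.

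The promoters of these genes were read from RefSeq (GRCh38.p14) because this element is what their regulation is known by. A form of the response element, GAAA followed by any 2 bases and a second GAAA, was searched on both strands from 250 bases before to 50 bases after the gene start. It was found in 18 of 25 list promoters in the table (72%) and in 3.65% of all 27305 promoters. Of the 6 higher genes, 5 had a promoter in the table and all 5 hold it. A match describes letters only. The stretches below are on the plus strand, 5′ to 3′, with matches to the element or its reverse complement in capitals. IFI27 is chr14:94110583-94110695, IFI44 is chr1:78649726-78649788, IFIT1 is chr10:89392462-89392574, IFITM1 is chr11:313955-314043 and MX1 is chr21:41420559-41420588.
IFI27: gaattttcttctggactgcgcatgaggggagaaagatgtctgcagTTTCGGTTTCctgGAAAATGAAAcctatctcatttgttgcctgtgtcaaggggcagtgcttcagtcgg
IFI44: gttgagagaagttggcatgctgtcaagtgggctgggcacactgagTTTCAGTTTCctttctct
IFIT1: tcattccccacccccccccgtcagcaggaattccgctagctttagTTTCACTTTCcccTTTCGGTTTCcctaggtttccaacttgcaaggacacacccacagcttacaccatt
IFITM1: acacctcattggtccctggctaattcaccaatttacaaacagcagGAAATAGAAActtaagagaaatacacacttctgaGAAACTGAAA
MX1: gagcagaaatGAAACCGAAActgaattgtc

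IFI27, a mitochondrial interferon-induced protein whose promoter holds a pair of matches, measured 7.52, 10.80 and 7.14 in depleted MV4-11 and 5.25, 5.30 and 5.36 in depleted U937 cells. In scrambled cells it measured 5.32, 5.22 and 5.30 in MV4-11 and 5.39, 5.23 and 5.26 in U937. It was high only on the depleted MV4-11 arrays, array 2 above all, and level on the other 9. The depleted line difference was 3.18 (SE 0.66) at an adjusted p of 0.0137 and the scrambled one -0.01. The difference between them was 3.20 (95% interval 1.18 to 5.21), with an unadjusted limma p of 0.0046 and an adjusted p of 0.937. Without array 2 of depleted MV4-11 the depleted difference was 2.03 at an adjusted p of 1.9e-06, and the difference between line differences was 2.04 at 9.27e-05.

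IFI44, a cytoplasmic interferon-induced protein, measured 6.08, 7.84 and 5.96 in depleted MV4-11 and 4.09, 4.15 and 4.24 in depleted U937 cells. Its scrambled values were 4.10, 4.06 and 3.93 in MV4-11 and 4.16, 4.28 and 4.20 in U937. The depleted MV4-11 arrays were again the high ones and did not overlap any other. The depleted line difference was 2.47 (SE 0.35) at an adjusted p of 0.00156, called without each array in turn, and the scrambled one -0.18. They differed by 2.65 (95% interval 1.57 to 3.73) at an unadjusted p of 1.5e-04 and an adjusted p of 0.539, and by 2.04 at an adjusted p of 2.79e-05 without array 2 of depleted MV4-11. A second IFI44 probe set, dimmer on average, differed by 0.11 between the depleted lines.

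MX1, the antiviral dynamin-like GTPase, measured 6.71, 9.51 and 6.76 in depleted MV4-11, 5.63, 5.64 and 5.60 in depleted U937, 5.84, 5.78 and 5.86 in scrambled MV4-11 and 5.76, 5.78 and 5.94 in scrambled U937 cells. The 3 depleted MV4-11 arrays were above the other 9. Its difference of 2.04 (SE 0.53) was just past the threshold at an adjusted p of 0.0383 and was lost on leaving out any of 9 arrays, each array except the depleted MV4-11 ones, with an adjusted p of up to 0.117 (0.103 without array 1, 0.117 without array 2 and 0.0625 without array 3 of depleted U937). Without array 2 of depleted MV4-11 it was 1.11 at an adjusted p of 3.84e-05, and the difference between line differences was 1.11 at 0.00468. Without that array the MX1 difference was smaller and its adjusted p lower.

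Of the other higher members, IFIT1 was also highest on array 2 of depleted MV4-11 and level between the scrambled lines. IFITM1 and GBP2 had scrambled differences of a size similar to their depleted ones. IFIT1, which binds viral 5′ triphosphate RNA, measured 7.67, 9.06 and 7.71 against 6.83, 6.74 and 7.35, a separation of 1.17 at an adjusted p of 0.0429, with -0.03 in scrambled cells. It was lost without any of 8 arrays, at an adjusted p of up to 0.164, and without array 2 of depleted MV4-11 it was 0.72 at 0.0753. IFITM1, which blocks viral entry, measured 11.30, 12.29 and 11.39 against 10.42, 10.71 and 10.40, and its difference of 1.15 at an adjusted p of 0.0177 stood beside 1.44 in scrambled cells. It was lost without array 1 of depleted U937, at an adjusted p of 0.0698. GBP2, a guanylate-binding GTPase, measured 7.14, 7.12 and 7.34 against 6.17, 6.13 and 6.38, 0.97 higher, with 0.84 in scrambled cells, and array 2 was not high for it. MX2 was the member that was lower, at 9.14, 9.23 and 9.28 against 9.65, 9.63 and 9.65. It differed by -0.43 in depleted (adjusted p 0.0202) and -0.39 in scrambled cells, and its depleted call was lost without array 1 or 2 of either line's depleted cells (adjusted p up to 0.0850).

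Among members that were not called, IFI44L, a paralog of IFI44, measured 4.86, 7.94 and 4.70 against 3.85, 3.86 and 3.41, with a difference of 2.13 at an adjusted p of 0.0555, and of 1.07 at 0.00113 once the high array 2 was left out. ISG15, the ubiquitin-like modifier, measured 9.66, 11.03 and 9.12 against 8.84, 8.89 and 9.91 and overlapped, with U937 array 3 above 2 of the MV4-11 arrays. USP18, the protease that removes ISG15, differed by -0.38 in depleted cells and by -0.94 in scrambled cells, where it was called at an adjusted p of 0.00189. Of the list, the median array level was 7.63, 8.65 and 7.31 in depleted MV4-11 and 7.10, 7.37 and 7.44 in depleted U937 cells. The same MV4-11 array was the highest for the MV4-11 line genes described above, and its part in the interferon result was not tested beyond leaving it out.

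Histone genes were the second group, and the list with the most calls relative to its size. They encode the core and linker histones of nucleosomes, mostly from a cluster on chromosome 6. Of 20 measured members, 10 were higher in depleted MV4-11 and none was lower, with a median of 0.74 and 19 above 0. In scrambled cells 1 was higher, the median was 0.43, and 19 were again above 0. Of all genes, 3.66% were higher and 4926 of 11468 lay above 0 in depleted cells. The higher members were H1-2, H2AC6, H2AC16, H2BC5, H2BC6, H2BC9, H2BC12, H2BC17, H2BC21 and H3C1. Histone genes are near-identical copies, so probe sets may share signal between them and the 10 are not independent.

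H2BC12 measured 11.67, 13.01 and 10.50 in depleted MV4-11 and 9.43, 9.36 and 9.94 in depleted U937 cells, with 9.87, 9.69 and 9.58 in scrambled MV4-11 and 9.45, 9.30 and 8.86 in scrambled U937. The depleted MV4-11 arrays were the highest of all and array 3 of them was nearest to U937. Its log2 difference was 2.15 (SE 0.44) at an adjusted p of 0.0133, and 0.51 in scrambled cells. H2AC6 measured 7.93, 9.67 and 7.11 against 6.28, 6.23 and 6.49, 1.90 higher. The linker histone H1-2 measured 9.03, 9.93 and 8.15 against 7.24, 7.11 and 7.86, 1.63 higher. For each of the 3, array 2 was high and the lines did not overlap. Leaving out that array gave 1.51 for H2BC12, 1.19 for H2AC6 and 1.19 for H1-2, with adjusted p of 0.0122, 0.00702 and 0.0376. Their calls were lost without array 1 or 2 of depleted U937, and that of H1-2 also without array 1 of depleted MV4-11 (adjusted p up to 0.0613, 0.0876 and 0.0797 over single arrays).

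The histone calls depended on the U937 arrays. Without array 1 of depleted U937 1 member was called, without array 2 also 1, and without array 1 of depleted MV4-11 3, while without array 2 of depleted MV4-11 7 were called, without array 3 13, and with MV4-11 array 2 and U937 array 3 both left out 7. The list median stayed between 0.56 and 1.00 in these settings. H2BC21 kept its call without each array in turn, at 6.62, 7.45 and 6.61 against 5.61, 5.52 and 5.83. It was 1.24 higher (SE 0.22) at an adjusted p of 0.0066, with 0.80 in scrambled cells at 0.0586. The difference between line differences for H2BC12 was 1.64 (95% interval 0.29 to 2.99) and was not called.

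The third group is HLA class II, in which fewer members were called in depleted than in scrambled cells. These genes encode the molecules that present exogenous peptides to CD4 T cells. Of 17 measured members, 1 was higher and 1 lower in depleted cells with a median of -0.06. In scrambled cells none was higher, 5 were lower and the median was -0.27. The shares of all genes higher and lower were 3.66% and 2.76% in depleted and 2.96% and 2.5% in scrambled cells. For 5 of the 17 the difference between line differences had an unadjusted limma p under 0.05, against 4.55% of all genes, and for none of them was it called. The class was not alone in this. Of the 23 neutrophil granule genes 7 were under the same threshold, with list medians of 0.05 in depleted and -0.16 in scrambled cells. HLA-DRA, the alpha chain of HLA-DR, measured 7.56, 8.12 and 7.59 in depleted MV4-11 and 7.90, 7.12 and 6.75 in depleted U937 cells. It overlapped between the depleted lines, with a difference of 0.50 at an adjusted p of 0.249. In scrambled cells it measured 6.76, 6.75 and 7.31 against 8.30, 8.39 and 8.05, without overlap, a difference of -1.31 at 0.0101. The 2 line differences were 1.81 apart (95% interval 1.02 to 2.59), at an adjusted p of 0.557.

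HLA-DRB1, the beta chain, measured 8.14, 8.39 and 8.10 against 8.32, 8.22 and 7.94 in depleted cells and 8.25, 8.17 and 8.25 against 9.26, 9.34 and 8.85 in scrambled cells. In scrambled cells U937 was the higher line, by 0.93 on the log2 scale (difference -0.93, adjusted p 0.00185), and in depleted cells the lines lay together at 0.05. HLA-DPB1 went the same way, from -0.73 (adjusted p 0.00282) to -0.06. The chaperone CD74 differed by -0.73 in scrambled cells at 0.0220 and by -0.26 in depleted cells at 0.348. HLA-DRB genes are close copies of each other, so the signal of HLA-DRB1 may include its paralogs. CIITA, the master regulator of the class, differed by -0.08 and -0.27 and was not called in either.

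HLA-DPA1 was the member higher in depleted MV4-11. It measured 6.45, 7.41 and 6.41 in depleted MV4-11, 5.34, 4.84 and 4.46 in depleted U937, 5.26, 5.32 and 5.04 in scrambled MV4-11 and 5.91, 5.89 and 5.01 in scrambled U937 cells. The depleted MV4-11 arrays were above all others, and the scrambled lines overlapped. Its depleted line difference was 1.88 (SE 0.30) at an adjusted p of 0.00324, called without each array in turn (1.55 without array 2 of depleted MV4-11), and its scrambled one -0.40. They differed by 2.27 (95% interval 1.36 to 3.19) at an unadjusted p of 1.4e-04 and an adjusted p of 0.539. Other HLA-DPA1 probe sets gave 0.59 and -0.01 in depleted cells, neither of them called. HLA-DQB1 was not called by its brightest probe set, at 0.25. Of its dimmer probe sets, those at 1.19 and 0.59 were called higher (limma adjusted p 0.0087 and 0.0247). The others, at -0.003 to 0.38, were not. HLA-DOB was the lower member, at -0.60 in depleted and -0.72 in scrambled cells, and its depleted call was lost without array 1 or 2 of either line (adjusted p up to 0.126).

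**Figure D3:**
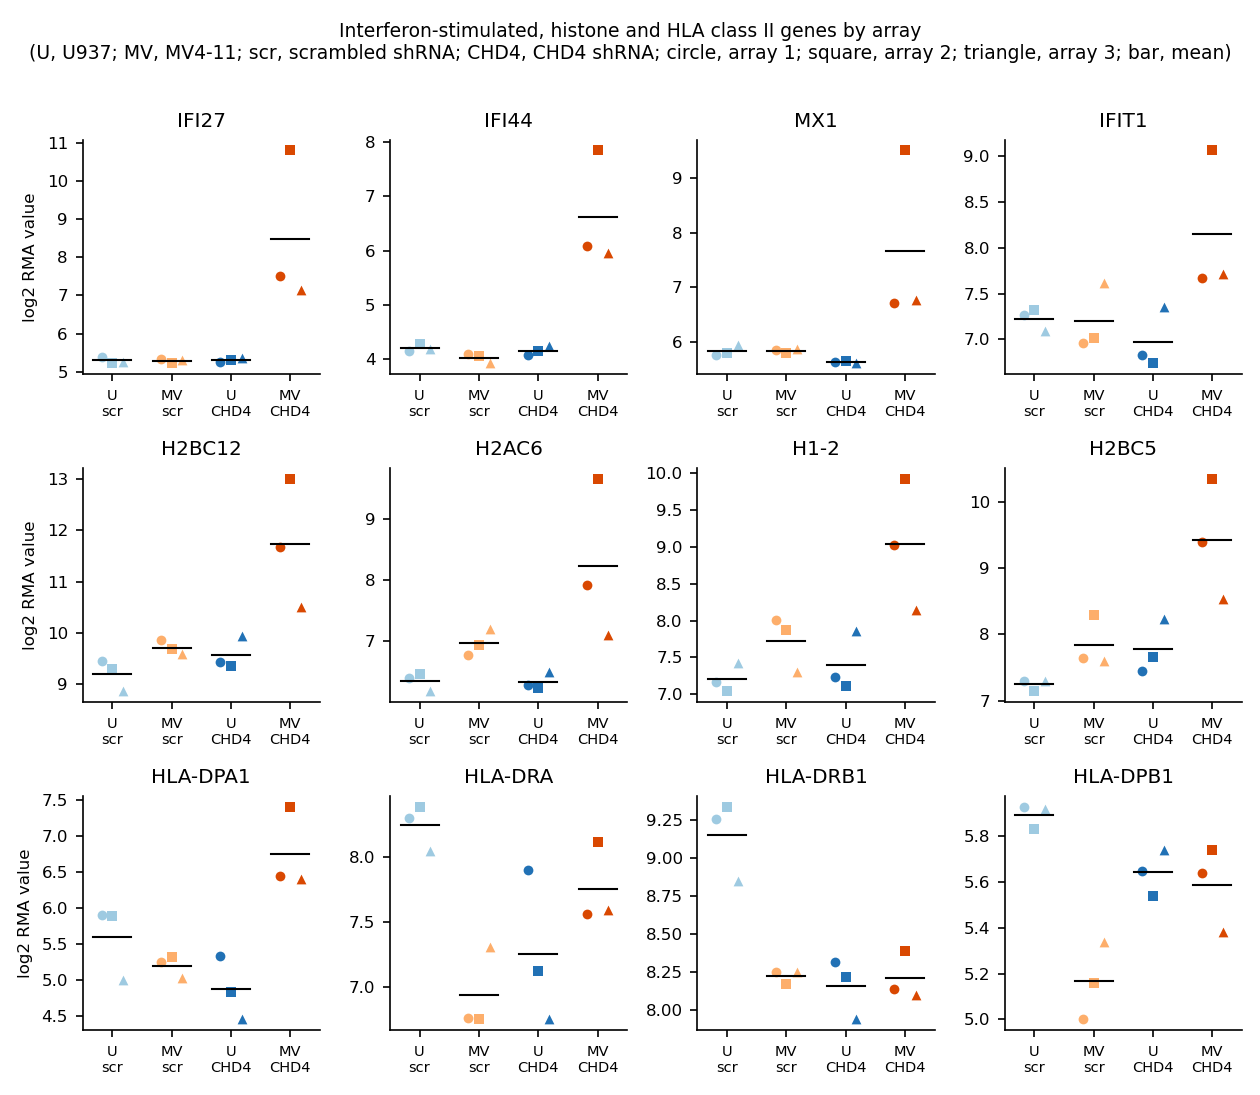
Log2 RMA values of 4 interferon-stimulated, 4 histone and 4 HLA class II genes on each of the 12 arrays, with array numbers as symbols and group means as bars, each panel on its own axis that does not start at 0. Array 2 is the highest of the depleted MV4-11 arrays in all 12 panels, and for HLA-DRA, HLA-DRB1 and HLA-DPB1 the scrambled U937 arrays are higher than the scrambled MV4-11 arrays.

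The 10 genes with the lowest unadjusted p for the difference between line differences were chosen after their values were seen, and some of them belong to the lists above. The lowest was FILIP1L, a cytoskeletal regulator of the filamin-interacting family. It measured 5.66, 6.32 and 5.99 in depleted MV4-11 and 4.70, 5.0 and 4.74 in depleted U937 cells, against 4.64, 4.38 and 4.22 and 4.41, 4.48 and 4.54 in the scrambled lines. Every depleted MV4-11 array was above the other 9. The depleted line difference was 1.18 (SE 0.16) at an adjusted p of 0.00101 and the scrambled one -0.06, so that they differed by 1.24 (95% interval 0.76 to 1.72) at an unadjusted p of 9.68e-05. The adjusted p of that difference was 0.539, and 0.109 to 0.751 without 1 of the 6 depleted arrays.

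CHGB, the secretory granule protein chromogranin B, measured 8.23, 8.29 and 7.09 in depleted MV4-11 and 5.45, 5.86 and 6.17 in depleted U937 cells. Its scrambled values were 5.28, 5.14 and 5.39 in MV4-11 and 5.26, 5.31 and 4.78 in U937. MV4-11 array 3 was the lowest of its group and U937 array 3 the highest of its own, and the lines did not overlap. The line differences were 2.04 (SE 0.28, adjusted p 0.00116) in depleted and 0.15 in scrambled cells. They differed by 1.89 (95% interval 1.04 to 2.74), and by 2.28 at an adjusted p of 0.0164 without array 3 of depleted MV4-11.

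TM6SF1, a lysosomal membrane protein gene on chromosome 15, was called in depleted and in scrambled cells. It measured 7.50, 6.88 and 7.41 in depleted MV4-11 and 4.54, 5.04 and 4.77 in depleted U937 cells, with array 2 the lowest of the MV4-11 arrays. The depleted line difference of 2.48 (SE 0.17, adjusted p 5.69e-06) stood beside 1.24 in scrambled cells (adjusted p 9.39e-04). The difference between them was 1.24, called at an adjusted p of 0.0273 without array 2 of depleted MV4-11, where it was 1.43. It was not called when array 3 of depleted U937 was left out as well, at an adjusted p of 0.0874. KIT, the stem cell factor receptor, measured 6.61, 6.74 and 6.77 against 5.84, 5.87 and 6.30 in depleted cells and 5.94, 5.96 and 6.06 against 6.18, 6.05 and 5.97 in scrambled cells. It was higher in MV4-11 by 0.70 (adjusted p 0.00491) in depleted cells and overlapped in scrambled cells at -0.08.

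The other genes of the 10 were HLA-DPA1, IFI44, HLA-DRA, HLA-DRB1, CKMT2 and SLA. CKMT2, a mitochondrial creatine kinase, measured 4.25, 4.11 and 4.26 against 4.70, 4.92 and 4.69 in depleted cells, -0.56 (adjusted p 0.00404), and 0.04 in scrambled cells. SLA, an adaptor that dampens receptor signalling, was level between depleted lines at -0.03 and -0.82 lower in scrambled MV4-11 (adjusted p 0.00164). RASGRP3, a Ras exchange factor, measured 6.54, 6.84 and 6.29 against 5.60, 5.30 and 5.74 in depleted cells. It was 1.01 higher in depleted MV4-11 (adjusted p 0.00201) and 0.14 in scrambled cells. KIT, CKMT2, FILIP1L, CHGB, TM6SF1 and RASGRP3 kept their depleted-cell call without each of the 12 arrays in turn.

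Of the 56 genes past 2-fold that were not called in scrambled cells, 7 were lower in depleted MV4-11. EYA1, a transcriptional coactivator and phosphatase, measured 5.74, 5.59 and 5.47 in depleted MV4-11 and 6.29, 6.79 and 7.36 in depleted U937 cells, against 4.96, 5.03 and 5.15 and 4.99, 5.14 and 4.95 in the scrambled lines. Both depleted lines were above both scrambled lines, and U937 more so. The difference was -1.21 (SE 0.20, adjusted p 0.00367) in depleted and 0.02 in scrambled cells, which differed by -1.23 (95% interval -1.84 to -0.63). CSRP3, a muscle LIM protein, measured 8.02, 8.49 and 7.58 against 8.85, 9.47 and 10.30, a difference of -1.51, and -0.50 in scrambled cells. CCN3, a matricellular protein, differed by -1.10 in depleted and -0.45 in scrambled cells. These 3 kept their call without each array in turn, while CDADC1, PDE4B, LRRC2 and ANKRD28, at -1.29, -1.16, -1.15 and -1.04, were each lost without array 1 or 2 of depleted U937 or array 1 of depleted MV4-11, among others (adjusted p up to 0.0655, 0.0909, 0.130 and 0.156).

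Of the 49 higher genes of this class, GZMA, IL1B and VIM are given, the last 2 chosen after their values were seen. GZMA, granzyme A, measured 7.31, 8.22 and 6.67 against 4.57, 5.03 and 6.52, with U937 array 3 close to MV4-11 array 3, and differed by 2.03 in depleted and 0.32 in scrambled cells. IL1B, the cytokine interleukin 1 beta, measured 9.54, 10.22 and 8.63 against 7.54, 7.79 and 8.73, and here U937 array 3 was above MV4-11 array 3. Its difference was 1.44 in depleted and 0.44 in scrambled cells. Both calls were lost without array 1 or 2 of depleted U937 or array 2 of depleted MV4-11 (adjusted p up to 0.0775 and 0.108). Leaving out U937 array 3 gave 2.60 for GZMA and 1.80 for IL1B, at adjusted p of 0.00159 and 0.00859. VIM, the intermediate filament vimentin, was the steadier one, at 12.13, 12.83 and 12.22 against 11.64, 11.17 and 11.10. It was 1.09 higher (SE 0.21, adjusted p 0.00892) and 0.43 in scrambled cells, and it was called without each array in turn.

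Targets of p53 were listed because CHD4 takes part in the DNA damage response. Of 19 measured members, 6 were higher in depleted MV4-11 and none lower, with a median of 0.32. In scrambled cells 4 were higher and the median was 0.34. Of all genes, 3.66% were higher in depleted and 2.96% in scrambled cells. CDKN1A, the cell cycle inhibitor p21, measured 9.43, 10.02 and 9.01 against 8.25, 8.22 and 8.32. It was separated by 1.22 (SE 0.21, adjusted p 0.00495), with 0.89 in scrambled cells. ZMAT3, an RNA-binding p53 target, measured 7.03, 7.26 and 7.12 against 5.71, 6.04 and 5.82. It was tight within both lines and 1.28 higher (SE 0.19, adjusted p 0.00208), with 0.63 in scrambled cells at 0.0784. SESN1, a stress-induced sestrin, was 0.64 higher in depleted and 0.49 higher in scrambled cells. MDM2, the ubiquitin ligase of p53, was 0.69 higher at an adjusted p of 0.0204, was lost without array 1 of depleted U937 at 0.0879, and its other 4 probe sets ranged from 0.00 to 0.59. GADD45A and PPM1D, at 0.73 and 0.45, were lost without array 1 or 2 of depleted U937 or array 2 of depleted MV4-11, among others (adjusted p up to 0.138 and 0.142). The list's count was 3 to 7 without single depleted arrays.

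Lysosomal genes tilted the other way. Of 23 measured members, 6 were lower in depleted MV4-11 and none higher, with a median of -0.15. In scrambled cells 3 were lower and the median was -0.14. Of all genes, 2.76% were lower in depleted and 2.5% in scrambled cells. CTSH, cathepsin H, measured 10.33, 10.14 and 10.45 against 11.30, 11.37 and 11.03. All MV4-11 arrays were lower, by -0.93 (SE 0.14, adjusted p 0.0019), and -0.76 in scrambled cells. The others were the acid glucosidase GAA at -0.59, the hexosaminidase subunit HEXA at -0.55, the glucuronidase GUSB at -0.46, and the peptidase TPP1 and the thioesterase PPT1, both at -0.38. The other HEXA probe set, at -0.27, and those of TPP1, at -0.25, -0.12 and 0.05, were not called. CTSH kept its call without each array in turn, and without array 1 of depleted U937 it was the 1 member called. GAA then stood at an adjusted p of 0.0505, and the other 4 were lost without array 1 or 2 of depleted U937 (adjusted p up to 0.0785, 0.0873, 0.148 and 0.0573). CTSH and HEXA lie on chromosome 15.

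The double-strand break repair and G2/M lists had larger called shares than the 6.43% of all genes, and the replication list a smaller one. Several of these calls lie on chromosome 15. Of 24 double-strand break repair genes, CHEK1 was higher and TP53BP1 and BLM were lower. TP53BP1, which encodes the repair scaffold 53BP1, measured 8.64, 8.51 and 8.67 in depleted MV4-11 and 9.30, 9.42 and 9.35 in depleted U937 cells. The lines were cleanly apart, by -0.75 (adjusted p 0.0019), and by -0.91 in scrambled cells. BLM, the Bloom syndrome helicase, was lower by -0.52 in depleted and -0.38 in scrambled cells, and the spindle checkpoint kinase gene BUB1B by -0.52 and -0.51. TP53BP1, BLM and BUB1B lie on chromosome 15 and kept their calls without each array in turn. Of 29 genes of G2/M and mitosis, CDC25C and BUB1B were lower and NDC80 was higher, and the list lay slightly above 0, with a median of 0.16, 23 members above 0 and a scrambled median of 0.29. NDC80, a kinetochore subunit, measured 10.18, 10.10 and 10.53 against 9.54, 9.56 and 9.85, 0.62 higher at an adjusted p of 0.0409, and was lost on leaving out any of 7 arrays (up to 0.149). CDC25C, the mitotic phosphatase on chromosome 5, measured 6.12, 6.62 and 5.84 against 7.83, 7.79 and 7.80. It was lower on every MV4-11 array, by -1.61 (limma adjusted p 0.00151), with -0.98 in scrambled cells. Of its other probe sets, that at -0.80 was called and that at -0.43 was not. CHEK1, a checkpoint kinase, was 0.59 higher and was lost without array 1 or 2 of either depleted line (adjusted p up to 0.0939). Of 37 replication and G1/S genes, CCNE1, which encodes cyclin E1, was higher at 0.83. Its call was lost without any of 4 arrays (limma adjusted p up to 0.0802). In this list 31 members lay above 0 with a median of 0.17, against 17 and -0.05 in scrambled cells. Of all 11468 genes, 4926 lay above 0 in depleted and 4907 in scrambled cells.

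Of the 36 lists, those for apoptosis regulators, cholesterol synthesis, glycolysis and hypoxia, cytosolic ribosomal proteins, HLA class I, and erythroid, megakaryocyte and epithelial markers held no called gene in depleted cells. The cytosolic ribosomal proteins, 21 genes of uniformly high signal, had a median near 0. The apoptosis list had a median of 0.27 over 24 genes with no call. In the amino acid stress list 3 of 26 genes were lower and none higher. In the immediate early and heat shock lists 2 of 27 and 2 of 15 were higher and none lower. Beside these counts, 3.66% of all genes were higher and 2.76% lower. Chemokines and their receptors had a median of 0.24 that changed to -0.09 without array 2 of depleted MV4-11.

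**Figure D4:**
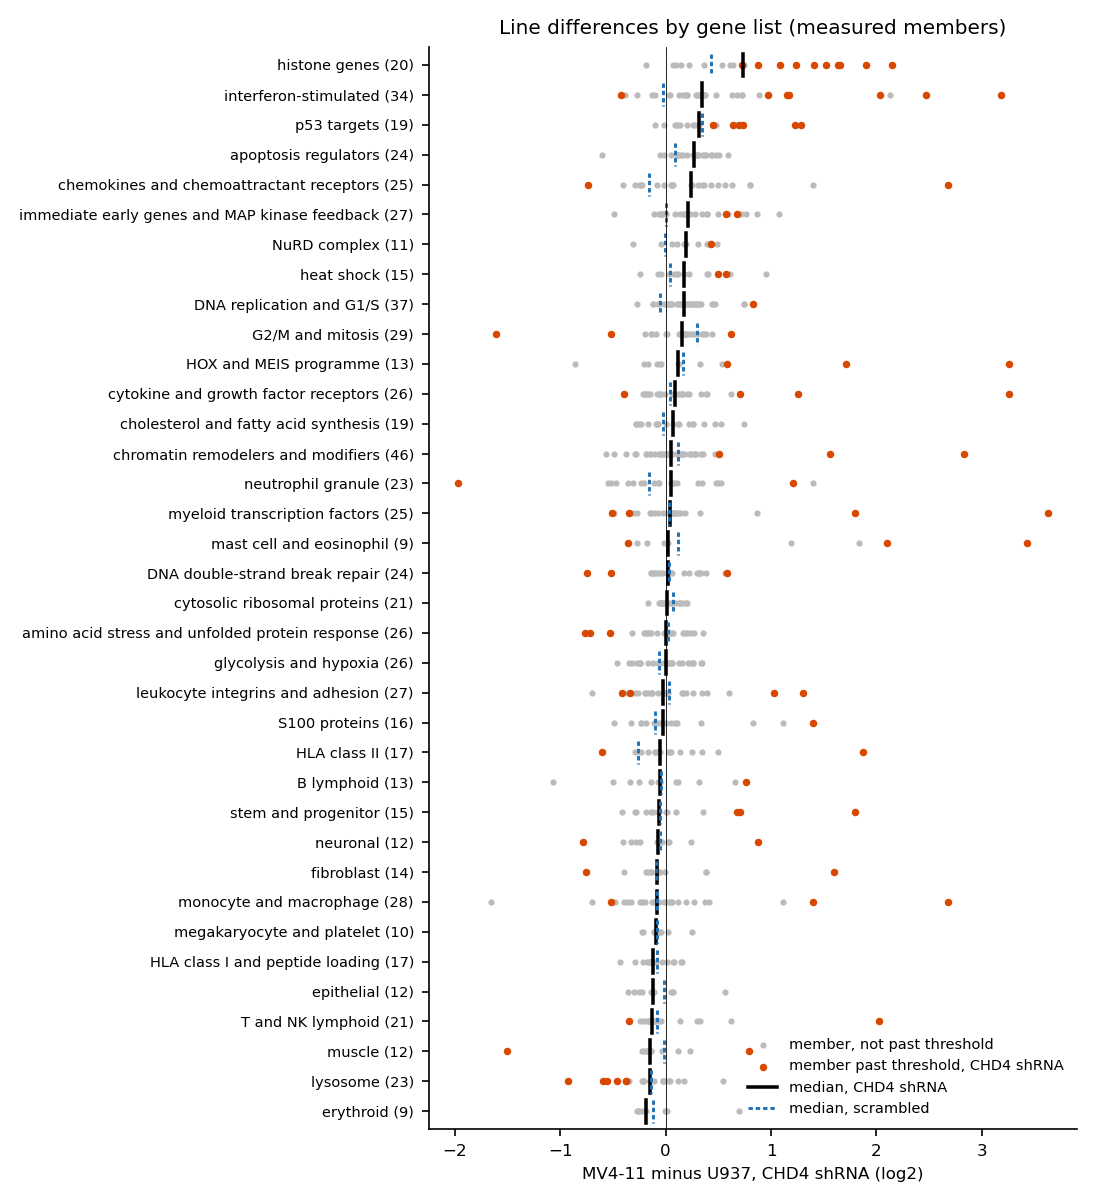
MV4-11 minus U937 log2 differences of depleted cells for the measured members of 36 gene lists, 1 point per gene, orange where the limma adjusted p was under 0.05, with list medians of depleted (black) and scrambled (blue) cells. Histone genes have the highest median, 0.74 against 0.43 in scrambled cells, and the medians of the interferon-stimulated list are 0.34 and -0.02.

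By chromosome, genes lower in depleted MV4-11 were gathered on chromosome 15, a pattern chosen after the values were seen. Of its 360 genes, 67 were lower (18.6%) and 7 higher, whereas on the other autosomes 0.575% to 3.82% were lower. These were 21.1% of all lower calls from 3.14% of the genes. The shift was small for most genes, with a median of -0.23 and 302 of 360 below 0, and 6 of the 67 reached 2-fold. HDGFL3, CTSH, HEXA, TP53BP1, BLM and BUB1B, described above, are among the lower genes. In scrambled cells 61 were lower and 6 higher with a median of -0.20, and 38 genes were lower in both.

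Along the chromosome, in RefSeq gene order, the first 30 genes from HERC2P3 to AVEN had a median of -0.01, with 5 higher and 1 lower. Each later run of 30 genes had a median between -0.41 and -0.16. The lowest was the run from OIP5 to MFAP1, with 15 genes lower. The 330 genes after the first run had a median of -0.25 and 286 were below 0. Relative to the mean of scrambled U937, the median of these 330 genes was -0.24, -0.26 and -0.20 on the depleted MV4-11 arrays, -0.21, -0.22 and -0.22 on the scrambled MV4-11 arrays, and 0.00, 0.02 and 0.02 on the depleted U937 arrays. The arrays of each line were thus close together on this stretch, with or without depletion. Neighbouring genes are not independent measurements. The count of lower genes was 34 without array 1 and 37 without array 2 of depleted U937, and 43 without array 1 of depleted MV4-11, while the median stayed between -0.25 and -0.22 without any depleted array. Over all genes 3.66% were higher in depleted MV4-11. Chromosome 18 held 17 higher (9.77%) and 1 lower of 174 genes, with a median of 0.04 and 80 genes below 0. Its count of higher genes was 8 without array 1 and 5 without array 2 of depleted U937, and 8 without array 1 or array 2 of depleted MV4-11. Chromosome 6 held 59 higher (8.77%) and 14 lower of 673 genes, with a median of 0.01. In scrambled cells 17 genes of chromosome 18 and 39 of chromosome 6 were higher.

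**Figure D5:**
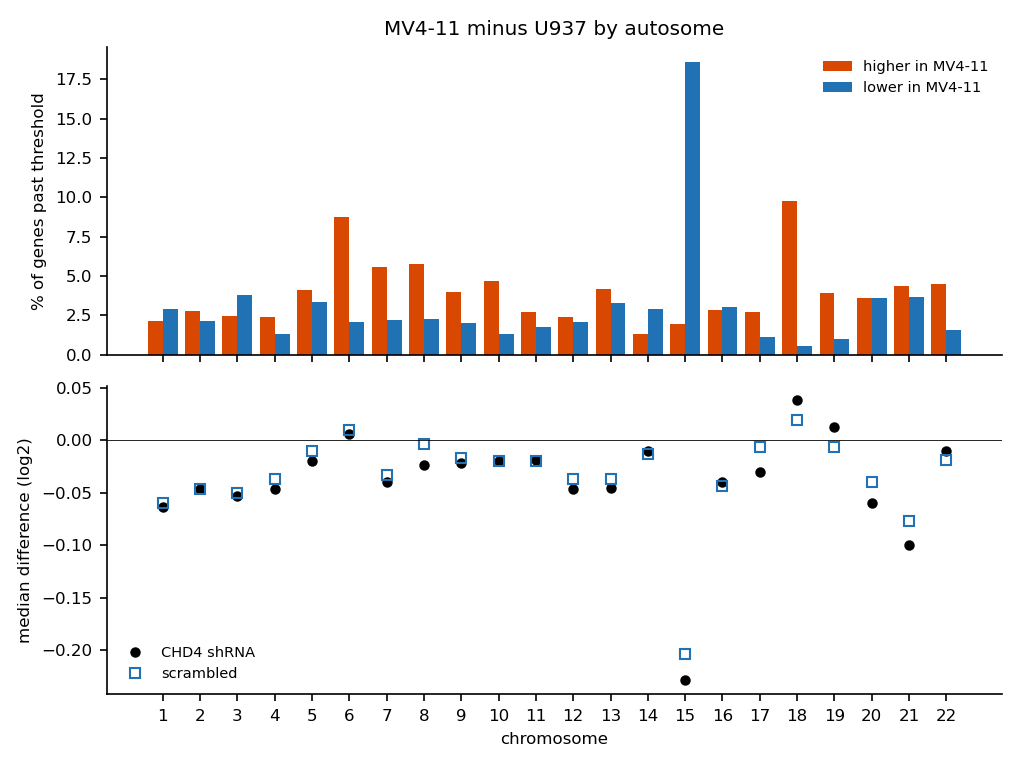
Upper panel, percentage of the genes of each autosome called higher or lower in depleted MV4-11 than in depleted U937 cells; lower panel, median log2 difference of all its genes in depleted and scrambled cells. Chromosome 15 stands out with 18.6% of genes lower and medians of -0.23 and -0.20.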

How the data were processed

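The authors deposited 1 table of log2 values for 12 Affymetrix arrays of total RNA, which per the submitters' processing notes came from RMA; no version or genome build is given in the sources used here. RMA equalises the arrays' distributions by quantiles, which hides any general shift, and dim signals understate folds. Of 22277 probe sets, 62 were controls, 1043 had several gene symbols and 2108 were unnamed; 19052 of the 19064 with 1 symbol matched RefSeq. A gene was its brightest probe set over 12 arrays (11963 genes, 11468 autosomal). No detection filter was applied, and the number of arrays limits the precision.

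With limma 3.58.1 (R 4.3.3), 4 group means were fitted to all 12 arrays, so the groups share 1 estimate of spread, and p-values were adjusted (Benjamini-Hochberg) over all genes tested. "Called" means adjusted p under 0.05. Every p is two-sided and comes from this limma test, which was tried on simulated data with independent noise between arrays. That simulation does not cover the deviations shared between arrays that are given below. P-values measure only the spread between these arrays. Genes were named by rule: the 10 largest differences per direction without overlap, up to 4 members per list with the lowest p, and CHD4; others were chosen after their values were seen. Members, lists and tests were chosen with earlier results of these data known. Same-numbered MV4-11 arrays with and without depletion deviated together (correlations 0.46, 0.48, 0.49). For U937 the correlations were 0.002, 0.35 and 0.34, and between depleted MV4-11 and depleted U937 they were -0.06, -0.27 and -0.54. The main fit held no replicate block, and pairing by number within a line was an alternative. Alternatives were other scalings, a dim-gene filter, probe-set means, trend, replicate blocks, other thresholds and leaving out arrays.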

Additional observations from a re-analysis of the deposited data

How the results depend on the processing

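The line difference was called for 737 genes in depleted cells. A separate fit of only the 6 depleted arrays, which leaves fewer degrees of freedom, called 302, and the fit of all 12 arrays called 227 at an adjusted p under 0.01 and 1372 under 0.10. Leaving out 1 array gave 288 to 1067. The count past 2-fold was 168, or 108 at an adjusted p under 0.01, and leaving out 1 array gave 119 to 224. The difference between line differences was called for 0 genes, and 0 were past the rule for genes that scrambled cells lack; leaving out 1 array gave 0 to 4 and 0 to 3. With array 2 of depleted MV4-11 and array 3 of depleted U937 left out together, chosen after seeing the data, both counts were 3. The cause of these changes was not tested. Scaling, the dim-gene filter, probe-set means and trend left the 4 counts within 1.5 times, with the lowest adjusted p of the difference between line differences at 0.403 to 0.932. With the replicate block shared by all groups, 764 and 169 line differences were called, and with line and number as a random replicate block 731 and 166. With the fixed replicate block the lowest adjusted p of the difference between line differences was 0.0823. Of 206 named genes, 121 were past the threshold, 44 of them under all 23 settings tried for them, and none reversed. RMA values carry no depth, and dim genes near background limit the size of folds.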
